A study of Homo sapiens with 24 samples.

Results

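Expression of 10 chaperones and folding enzymes of the endoplasmic reticulum (ER) was followed in the human hepatoma line Huh7.5.1 under silymarin or its solvent DMSO. They were HSPA5, HSP90B1, PDIA4, PDIA6, CALR, HYOU1, DNAJB9, DNAJB11, CRELD2 and SDF2L1, a list given by name, and they are 10 of the 18274 genes measured. Each had 1 probe set, and DDIT3, a stress-induced transcription factor outside the list, was set beside them. Silymarin is an extract of milk thistle seed, its dose was not stated, and every sample title carries the word novirus. The 24 samples were each hybridised to 1 Affymetrix Human Gene 1.0 ST array. DMSO and silymarin had 4 and 4 arrays after 4 h, 5 and 3 after 8 h, and 5 and 3 after 24 h. All groups shared the cell line. Whether replicates were separate cultures is not stated, so the p-values cover the spread between samples, which may be technical.

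Proteins that liver cells secrete fold in the ER, where HSPA5 (BiP) binds unfolded chains and HSP90B1, the lectin CALR and the disulfide isomerases complete the fold. When unfolded proteins build up, the sensors ATF6 and IRE1 raise chaperone genes through promoter sequences called ER stress response elements. Another sensor, the kinase EIF2AK3 (PERK), acts through ATF4, which induces DDIT3 (CHOP), and ATF4 also answers to other stresses such as amino acid shortage. Chaperone mRNA and DDIT3 can therefore be read as outputs of partly separate branches.

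The promoters show the elements by which these genes are classically grouped. The ER stress response element (ERSE) is searched as CCAAT and CCACG separated by any 9 bases, and ERSE-II as ATTGG and CCACG separated by any 1 base, on both strands of the 250 bases before each start. All 10 members and DDIT3 matched the RefSeq promoter table (GRCh38.p14). Of the members, 7 held an exact ERSE or ERSE-II, against 34 of 14122 measured genes with a promoter in the table (0.241%). ERSE alone occurred in 0.074% of all 35116 promoters and ERSE-II in 0.0513%. The matched stretches are shown with 10 bases either side, the element's fixed letters in capitals, 5′ to 3′ on the gene's strand.

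HSPA5: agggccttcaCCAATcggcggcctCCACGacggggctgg
HSP90B1: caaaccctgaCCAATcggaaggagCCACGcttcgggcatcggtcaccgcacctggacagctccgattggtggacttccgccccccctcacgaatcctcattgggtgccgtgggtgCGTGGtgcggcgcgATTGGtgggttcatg
PDIA6: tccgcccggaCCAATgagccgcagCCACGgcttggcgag
CALR: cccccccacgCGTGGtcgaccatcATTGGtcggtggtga
CRELD2: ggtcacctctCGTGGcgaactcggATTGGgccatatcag
HYOU1: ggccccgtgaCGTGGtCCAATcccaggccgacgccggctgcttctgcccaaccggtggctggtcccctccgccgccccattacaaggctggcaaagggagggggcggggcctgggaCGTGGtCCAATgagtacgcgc
SDF2L1: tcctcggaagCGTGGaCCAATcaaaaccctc

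HSPA5 (chr9:125241381-125241419, minus strand) and PDIA6 (chr2:10812843-10812881, minus strand, the second of its start sites) held 1 ERSE each on the gene's own strand. HSP90B1 (chr12:103930206-103930349, plus strand) held 2, in opposite orientations. CALR (chr19:12938374-12938412, plus strand) and CRELD2 (chr22:49918544-49918582, plus strand) held 1 in reverse. HYOU1 (chr11:119057264-119057400, minus strand) held 2 copies of ERSE-II, and SDF2L1 (chr22:21642104-21642134, plus strand) held 1. A further element, UPRE, searched as TGACGTGG on both strands, occurred in 0.612% of promoters and in HYOU1 alone of the members, overlapping its upstream ERSE-II. DNAJB11 and PDIA4 had no match to ERSE, ERSE-II or UPRE in this window.

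DNAJB9 and DDIT3, which the results below set apart from most chaperones, had no exact match to these elements either. Their stretches are shown with the single boxes CCAAT and CCACG, on either strand, in capitals.

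DNAJB9: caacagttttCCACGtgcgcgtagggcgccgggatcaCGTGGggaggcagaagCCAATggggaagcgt
DDIT3: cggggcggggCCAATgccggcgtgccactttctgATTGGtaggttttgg

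The DNAJB9 stretch lies at chr7:108569790-108569857 (plus strand) and that of DDIT3 at chr12:57520576-57520624 (minus strand, the first of its start sites). In the DDIT3 stretch CCAAT is followed after 9 bases by CCACT, which differs from the searched ERSE in its last letter only. The exact search leaves out such near matches. Single boxes are common, CCAAT in 32.0% and CCACG in 33.5% of all promoters. CARE, the C/EBP-ATF element that ATF4 binds, was searched as TGATGNAAN on both strands and was found in 3.13% of promoters, but in neither DDIT3 nor any member within these bases. A match or its lack describes letters in a window and says nothing about binding.

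Levels are RMA values, log2 intensities that the authors normalised together, and differences between them are log2 differences. In bulk RNA a change in every cell and a change in a share of the cells cannot be told apart. Array medians lay between 7.04 and 7.18. The 11 measured hepatocyte markers had mean levels from 11.44 (AHSG) to 13.34 (ALB), as for a hepatoma line. The endothelial and fibroblast markers had means from 3.38 to 7.77. Among 5 immune markers PTPRC, the pan-leukocyte marker, was at 4.33 and CD3E at 5.38. CD14 was at 7.13, CD68 at 8.45 and LYZ at 12.29, as high as hepatocyte markers.

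On 9 of the 10 members the arrays differed little. Their SDs within groups lay between 0.076 (CALR) and 0.143 (SDF2L1), while the median gene had 0.123. HSPA5 (0.137), HYOU1 (0.134) and SDF2L1 were above that median. HSPA5, the BiP chaperone, ran from 12.25 to 12.72 over all arrays. HSP90B1, the ER member of the HSP90 family, ran from 12.49 to 12.82, and the calcium-binding lectin CALR from 12.45 to 12.74. The disulfide isomerases PDIA4 and PDIA6 ran from 11.15 to 11.62 and from 11.77 to 12.08. HYOU1, which exchanges nucleotide on BiP, ran from 10.08 to 10.57. CRELD2, an ER stress protein with isomerase activity, ran from 8.60 to 9.11. The BiP co-chaperone DNAJB11 ran from 10.36 to 10.73, and its partner SDF2L1 from 8.25 to 8.90.

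DNAJB9 was the exception. It encodes ERdj4, a BiP co-chaperone that helps degrade misfolded proteins and holds IRE1 inactive. Its SD within groups was 0.474, rank 94 of 18274 genes, and its levels ran from 8.50 to 10.02. At 4 h DNAJB9 was 9.65, 8.88, 8.86 and 9.72 in DMSO and 9.72, 9.45, 9.30 and 8.69 in silymarin. At 8 h it was 9.49, 8.96, 8.50, 9.54 and 9.95 in DMSO and 9.74, 8.80 and 9.53 in silymarin. At 24 h it was 8.97, 9.32, 10.02, 8.94 and 8.94 in DMSO and 9.70, 9.16 and 9.30 in silymarin. High and low arrays therefore occurred under both labels at each time, and the groups overlapped.

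DDIT3 had an SD within groups of 0.608, rank 31. At 4 h it was 9.62, 9.46, 8.95 and 10.31 in DMSO and 10.74, 9.21, 9.17 and 9.42 in silymarin. At 8 h it was 9.79, 9.06, 9.09, 10.17 and 10.22 in DMSO and 10.58, 9.22 and 9.88 in silymarin. At 24 h it was 9.32, 9.42, 10.51, 9.10 and 9.39 in DMSO and 10.23, 9.51 and 9.10 in silymarin. Its groups overlapped at every time too. DDIT4, a stress-induced brake on mTOR and the gene with the widest spread within groups (SD 1.23, rank 1), split the arrays into 14 between 7.50 and 8.35 and 10 between 9.67 and 10.34. The 10 arrays of high DDIT4 were DMSO replicates 1 and 4 and silymarin replicate 1 at 4 h. At 8 h they were DMSO replicates 1, 4 and 5 and silymarin replicates 1 and 3, and at 24 h DMSO replicate 3 and silymarin replicate 1. DNAJB9 was at least 9.49 on those 10 arrays and at most 9.45 on the other 14, and DDIT3 was at least 9.62 and at most 9.51.

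**Figure D1:**
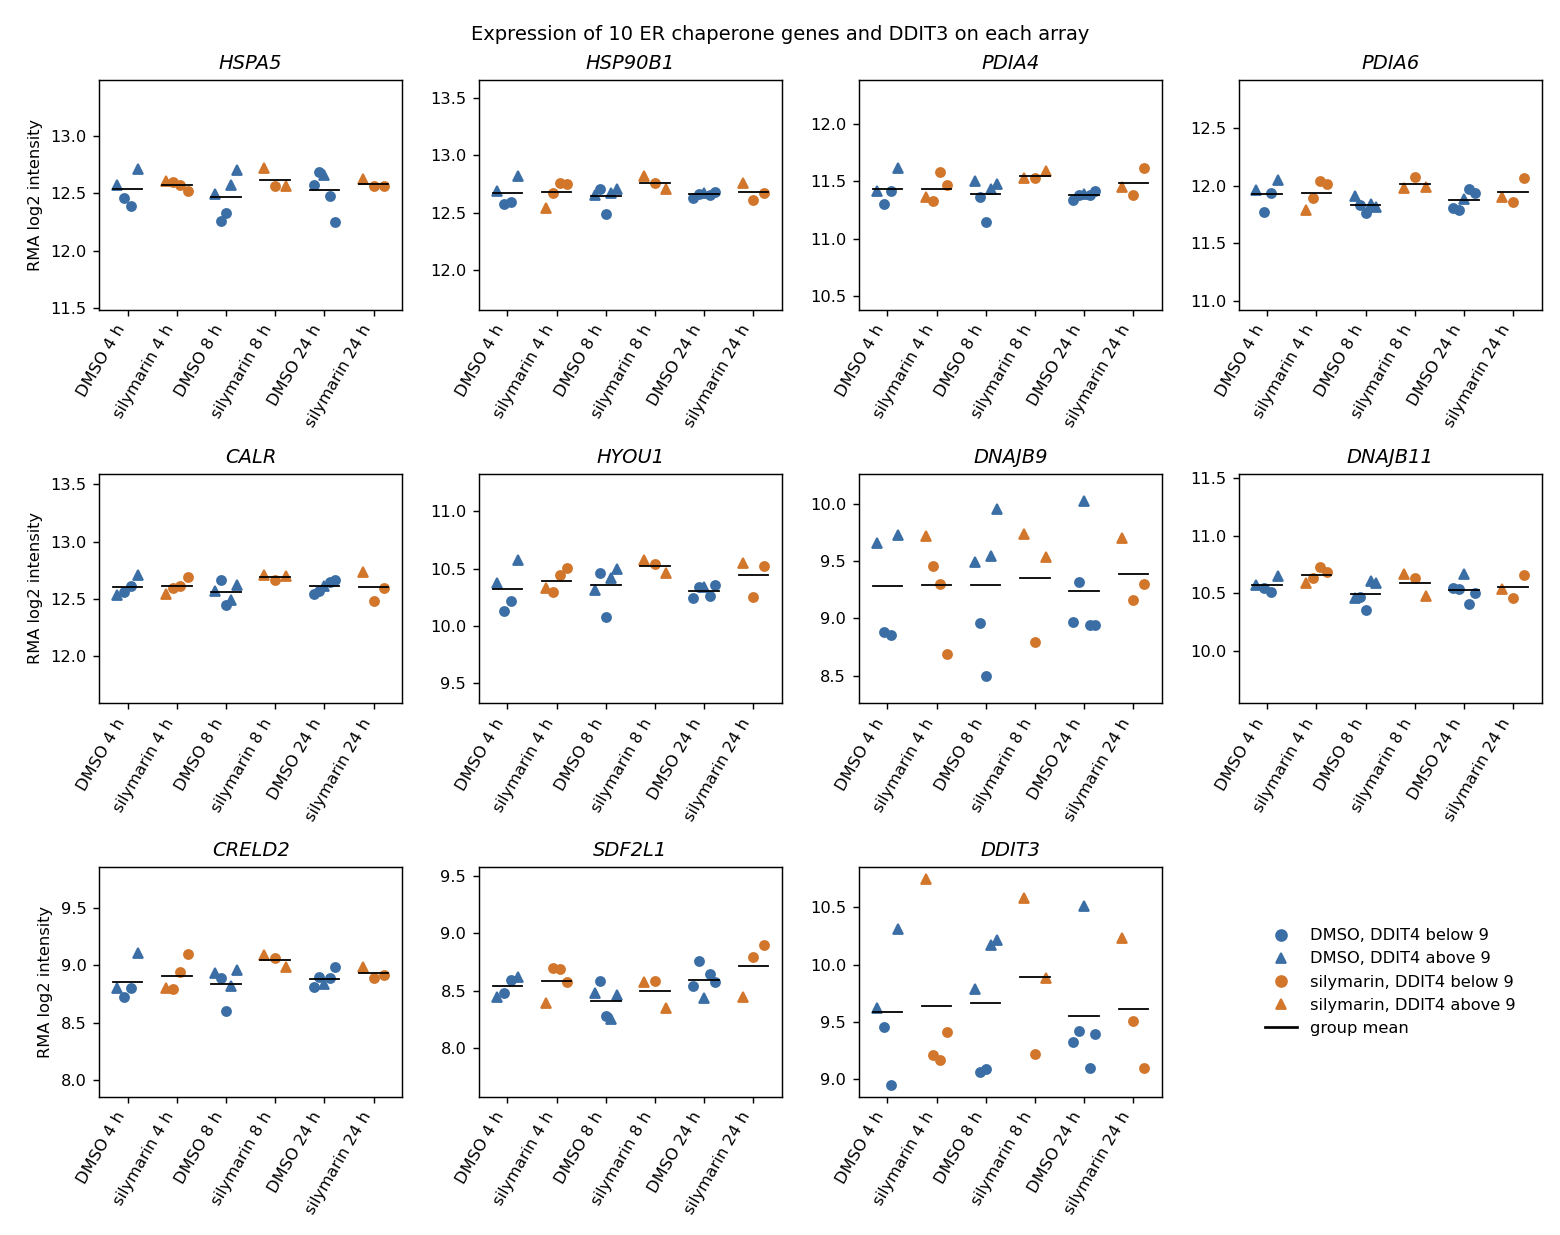
RMA log2 intensity (vertical axes, each spanning the same 2 log2 units) of the 10 members and DDIT3 on each array, by group (horizontal axes). Points are arrays in replicate order, triangles mark the 10 arrays of high DDIT4 (9.67 to 10.34), and black lines are group means. DNAJB9 and DDIT3 spread widely inside every group, and the other 9 genes stay within 0.65 of their own lowest array.

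The comparison of silymarin with DMSO asked how the cells' expression responded over the time course. At 8 h the chaperones lay slightly higher in silymarin, by a margin that did not pass the test. All 10 differences were above 0, with a median of 0.138 against -0.018 over all genes, 42.0% of which were above 0. Other ER lists, read further below, leaned the same way. Above 0 were 17 of 25 folding factors and 16 of 19 degradation genes, with medians of 0.029 and 0.056. So were 25 of 30 translocation genes and 16 of 21 ER to Golgi genes, with medians of 0.036 and 0.045. Of the hepatocyte markers 9 of 11 were above 0, and of the endothelial markers 1 of 5. Whether the lists differ was not tested. The DNAJB9 difference, 0.069, turned negative with array weights, with DDIT4 as a covariate or without some single arrays. The other members kept their sign in every alternative run. CRELD2 differed most, by 0.209 (SE 0.087), followed by PDIA6 with 0.184 (SE 0.071), HYOU1 with 0.172 (SE 0.095), PDIA4 with 0.164 (SE 0.079) and HSPA5 with 0.145 (SE 0.097). CALR differed by 0.131, HSP90B1 by 0.115, DNAJB11 by 0.095 and SDF2L1 by 0.089.

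PDIA6 at 8 h was 11.92, 11.83, 11.77, 11.84 and 11.82 in DMSO and 11.98, 12.08 and 11.99 in silymarin. CRELD2 was 8.93, 8.89, 8.60, 8.82 and 8.96 in DMSO and 9.09, 9.07 and 8.99 in silymarin. PDIA4 was 11.50, 11.36, 11.15, 11.44 and 11.48 in DMSO and 11.53, 11.53 and 11.59 in silymarin. In these 3 genes every silymarin array lay above every DMSO array, as no other member did, and 2.93% of all genes (536) did not overlap at 8 h. DMSO replicate 3 was the lowest of the 5 in each. Without that array the median difference of the 10 members at 8 h was 0.104 in place of 0.138, CRELD2 differed by 0.149, PDIA6 by 0.167 and PDIA4 by 0.105, and DNAJB9 by -0.128. HYOU1 overlapped, at 10.31, 10.46, 10.08, 10.42 and 10.50 in DMSO and 10.57, 10.54 and 10.46 in silymarin.

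limma called 0 members at 8 h, as it called 0% of all genes, with 719 genes at an unadjusted p under 0.05. Of the members, 4 were among those (PDIA6, CRELD2, CALR and PDIA4), each at adjusted p = 0.991 in limma. With DDIT4 as a covariate the median difference was 0.129 and still 0 members were called. DDIT3 differed by 0.23 (SE 0.39) at 8 h, a larger value with a far wider error. Its 95% interval ran from -0.59 to 1.05, and its sign flipped under some alternatives at each time. An exact two-sided permutation test of each member minus DDIT3 called 0 of 30 contrasts over the 3 times, after adjustment over the 30. Its smallest unadjusted p by that test was 0.393, for DNAJB9 at 8 h. With 4 against 4 or 5 against 3 arrays, no contrast could pass this adjustment by itself. The test therefore cannot decide on a single member. Silymarin at 8 h had 2 of 3 arrays of high DDIT4 and DMSO 3 of 5.

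At 4 h the members did not separate by label. Of the 10 differences 9 were above 0, with a median of 0.025 against -0.005 over all genes. The signs were not stable, and those of HSPA5, HSP90B1, PDIA4, PDIA6, CALR, DNAJB9 and CRELD2 each flipped under some alternative. The largest was DNAJB11 with 0.089 (SE 0.067), at 10.57, 10.55, 10.51 and 10.65 in DMSO and 10.59, 10.63, 10.73 and 10.69 in silymarin. DNAJB11 fell with the array's median level (r = -0.71, rho = -0.66, permutation test, adjusted p = 0.0013 over 11 genes, n = 24), with r = -0.61 without the 2 arrays farthest out and r = -0.70 within groups (permutation adjusted p = 0.0386). Within groups r was also below 0 for each other member, from -0.16 (SDF2L1) to -0.48 (DNAJB9), and for DDIT3 (-0.31). None of these was called. The part of the array median in DNAJB11's differences, or in the covariation of the members, was not tested. HSPA5 was 12.57, 12.46, 12.39 and 12.71 in DMSO and 12.60, 12.59, 12.57 and 12.52 in silymarin, a difference of 0.039 (SE 0.094). limma called 0 members, against 0% of all genes with 453 at an unadjusted p under 0.05, and 0 members had groups without overlap, as 2.18% of genes did.

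At 24 h HYOU1 had the largest difference of the 9 less variable members, 0.134 (SE 0.095), at 10.24, 10.34, 10.34, 10.26 and 10.36 in DMSO and 10.55, 10.25 and 10.52 in silymarin. SDF2L1 differed by 0.125 (SE 0.101), at 8.54, 8.76, 8.43, 8.65 and 8.57 in DMSO and 8.45, 8.80 and 8.90 in silymarin, where replicate 1 was lower than all but 1 DMSO array. DNAJB9 differed by 0.145 (SE 0.308) and PDIA4 by 0.102 (SE 0.079). Of the 10 differences 9 were above 0, with a median of 0.060 against 0.013 over all genes, and CALR stood at -0.003. The signs of HSPA5, HSP90B1, CALR, DNAJB9 and DNAJB11 flipped under some alternative. limma called 0 members, and 0% of genes, at an adjusted p under 0.05, with 553 at an unadjusted p under 0.05, and 0 members had groups without overlap, against 1.95% of genes. DDIT3 differed by 0.05 (SE 0.38) at 4 h and 0.06 (SE 0.39) at 24 h.

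**Figure D2:**
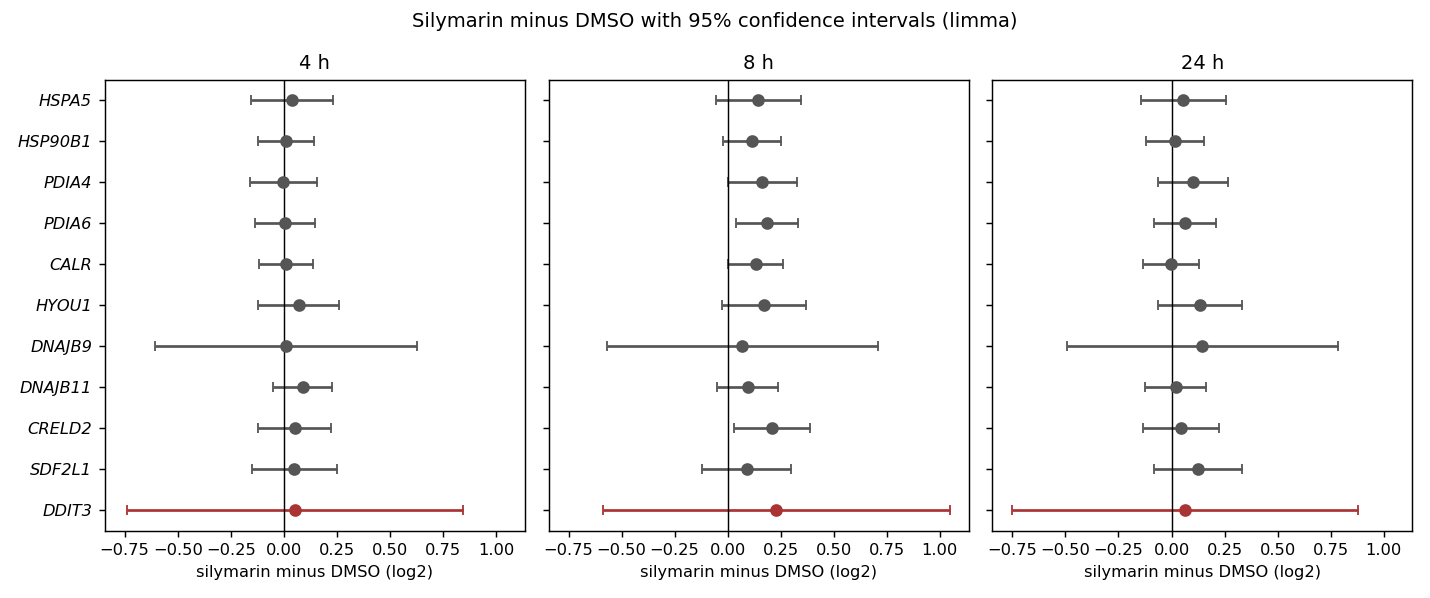
Silymarin minus DMSO (horizontal axes, log2) for the 10 members and DDIT3 at 4 h, 8 h and 24 h, with limma's 95% confidence intervals. At 8 h all 10 members sit between 0.069 and 0.209, and the interval of DDIT3, from -0.59 to 1.05, is several times wider than those of all members but DNAJB9.

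No member was called for time in DMSO alone. SDF2L1 had the largest difference among the less variable genes, 0.177 (SE 0.087) higher at 24 h than at 8 h, with means of 8.59 and 8.41 (limma's adjusted p = 0.458). PDIA6 was 0.095 lower at 8 h than at 4 h (SE 0.065). limma called 0 members for 8 h against 4 h, 24 h against 4 h and 24 h against 8 h, with 0% of all genes called and 1188, 310 and 1996 at an unadjusted p under 0.05. The change of the silymarin effect between times was also called for 0 members and 0% of genes (433, 746 and 551 at an unadjusted p under 0.05). PDIA6 came nearest, with a change of 0.179 (SE 0.098) from 4 h to 8 h. An F-test over the 6 groups called 0 members and 0% of genes, with 1316 at an unadjusted p under 0.05.

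Since no comparison of groups called a member, the members were next set against DDIT3 array by array. The slope is the log2 units by which a gene rose per log2 unit of DDIT3, with the 6 group means in the model. DNAJB9 and HSPA5 were called as rising with DDIT3, and no other member was called. DNAJB9 had a slope of 0.637 (SE 0.097, limma's adjusted p = 9.3e-05) and HSPA5 one of 0.146 (SE 0.042, limma's adjusted p = 0.0190). These were 2 of 10 members, and 15.8% of all genes were called (2893 of 18273), so the share is near the background.

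The slopes of HSP90B1, CALR, PDIA4 and PDIA6 on DDIT3 were near 0. HSP90B1 had a slope of 0.029 (95% interval -0.042 to 0.101), CALR 0.019 (-0.051 to 0.088), PDIA4 0.033 (-0.054 to 0.120) and PDIA6 -0.033 (-0.109 to 0.044). CRELD2 had 0.046 (-0.049 to 0.140), HYOU1 0.078 (-0.022 to 0.178) and DNAJB11 0.053 (-0.020 to 0.126). The interval of HYOU1 holds the slope of HSPA5, 0.146. The signs of HSP90B1, PDIA4, CALR and HYOU1 flipped with the term for array clusters described next. SDF2L1 had a slope of -0.120 (SE 0.047, limma's adjusted p = 0.0913), and limma called it as falling when any 1 of 3 arrays was omitted, replicate 4 of the 4 h DMSO group and replicates DMSO 3 or silymarin 1 of the 8 h groups (adjusted p from 0.0387 to 0.0404). The ATF4-dependent genes DDIT4 at 1.89 (SE 0.16) and asparagine synthetase ASNS at 0.88 (SE 0.16) had larger slopes than every member. TRIB3 at 0.53 (SE 0.10) and ATF4 itself at 0.39 (SE 0.06) lay below DNAJB9 (0.637) and above the other members. All 4 had limma's adjusted p at most 0.0011.

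The slope of DNAJB9 on DDIT3 was no longer called once the arrays of high and of low DDIT4 were told apart. With a term for the 2 clusters of arrays, a fit added after the data were seen, the slope was 0.044 for DNAJB9 (limma's adjusted p = 0.951) and 0.093 for HSPA5 (0.743), and 0 members were called. Within the 14 arrays of low DDIT4 the correlation of DNAJB9 and DDIT3 was r = 0.12 (permutation test, adjusted p = 0.745 over 55 pairs), and within the 10 of high DDIT4 r = 0.54 (0.202). For HSPA5 and DDIT3 it was 0.35 (0.347) and 0.62 (0.159) by the same permutation test. DDIT3 and DDIT4 themselves were correlated within the 10 arrays (r = 0.83, permutation adjusted p = 0.0296 over 11 genes) but not called within the 14 (r = 0.38, 0.402).

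**Figure D3:**
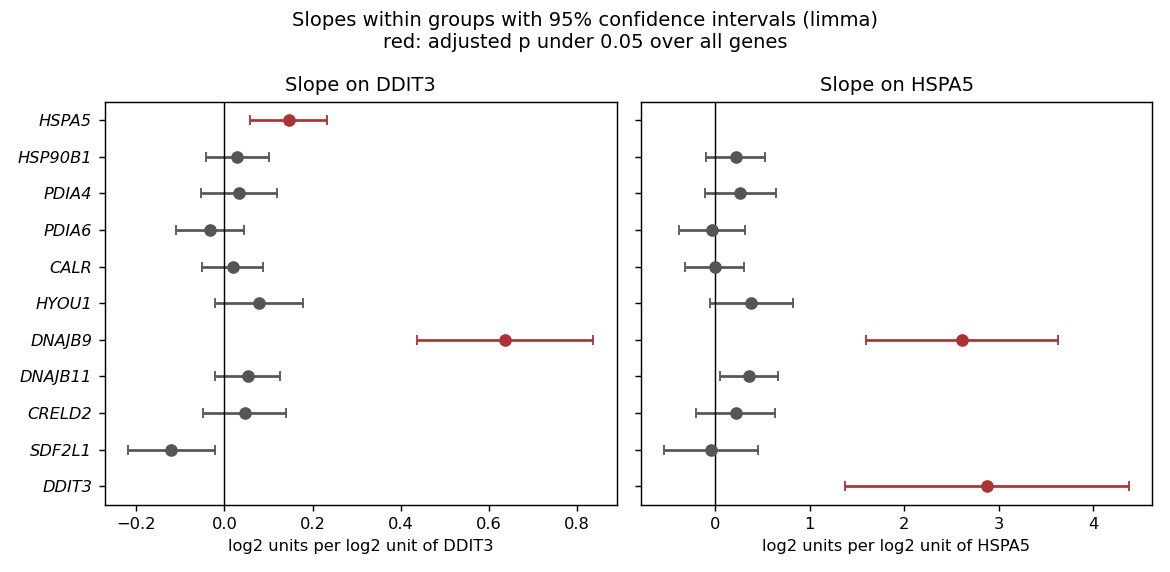
Slopes of the members on DDIT3 (left) and on HSPA5 (right) within groups, in log2 units per log2 unit, with limma's 95% confidence intervals. Red marks an adjusted p under 0.05 over all genes. DNAJB9 stands out on both sides with 0.637 and 2.61, while HSP90B1, PDIA4, PDIA6 and CALR lie near 0 on DDIT3.

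Set against HSPA5 in the same way, DNAJB9 was the only member called. It rose by 2.61 per log2 unit of HSPA5 (SE 0.49, limma's adjusted p = 0.0138), 1 of 9 members, where 2.15% of all genes were called, 1.92% rising and 0.23% falling. Without DMSO replicate 5 at 8 h limma's adjusted p was 0.0763, and with DDIT3 as a covariate 0.581. The count of all genes called, 392, ran from 15 without that array to 1006 without DMSO replicate 2 at 24 h. After the arrays were re-centred to 1 median DNAJB11 was called too. DNAJB11 had a slope of 0.36 (SE 0.15, limma's adjusted p = 0.20), HYOU1 one of 0.39 (SE 0.21), and PDIA6 and CALR -0.03 and -0.005, signs that flipped under some alternatives. DDIT3 had 2.88 (SE 0.73, limma's adjusted p = 0.0399), a call lost under repeated quantile normalization (0.0687), the trend and robust setting (0.0664) and 12 of 24 omissions of a single array.

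HSPA5 and DNAJB9 varied together over the 24 arrays with r = 0.72 and rho = 0.84 (permutation adjusted p = 0.00012 over 55 pairs), or r = 0.78 without the 2 arrays farthest out. Within the 14 arrays of low DDIT4 r was 0.57 (permutation adjusted p = 0.0787) and within the 10 of high DDIT4 it was 0.71 (0.0927). HSPA5 and DNAJB11 had r = 0.58 and rho = 0.55 (permutation adjusted p = 0.0082), with r = 0.53 and 0.78 within those arrays.

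**Figure D4:**
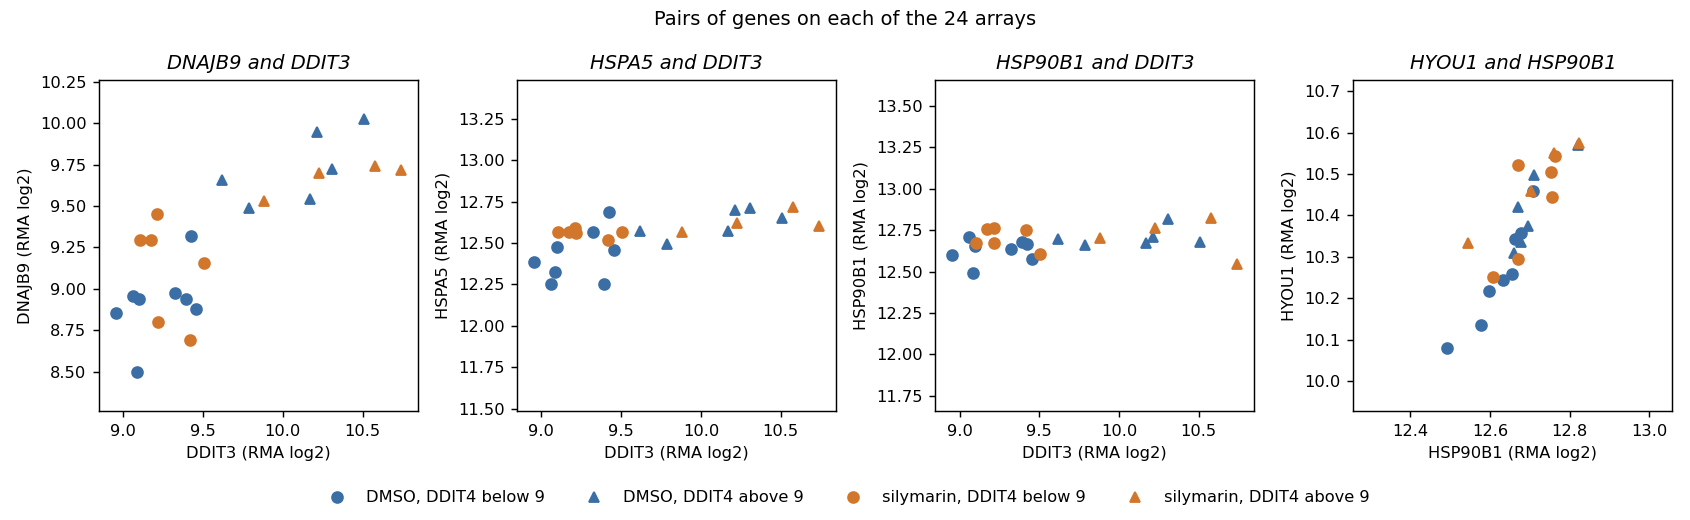
Levels (RMA log2) of 4 pairs of genes on the 24 arrays, with triangles for the 10 arrays of high DDIT4. The 3 left panels span 2 log2 units on both axes and the right panel 0.8. DNAJB9 steps up between the arrays of low and high DDIT4, HSP90B1 stays level along DDIT3, and HYOU1 climbs with HSP90B1 (r = 0.88).

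The 6 members HSP90B1, HYOU1, CRELD2, PDIA4, PDIA6 and CALR rose and fell together by small amounts, and none of their correlations with DDIT3 was called. They were set together after their correlations were seen, and their counts are a description, with no share over all pairs of genes computed. Their 15 pairs had r from 0.58 to 0.88 over 24 arrays, and a permutation test called all 15 with adjustment over 55 pairs. On deviations from group means 13 were called. Within the 14 arrays of low DDIT4 r ran from 0.56 to 0.91 and 14 pairs were called, and within the 10 of high DDIT4 it ran from 0.47 to 0.86 and 4 were called. Over 24 arrays DDIT3 had r from -0.11 to 0.38 with these genes, and from -0.22 to 0.35 on deviations from group means. It had r from -0.25 to 0.24 within the 14 arrays and from -0.33 to 0.20 within the 10. In each of these 0 of 6 pairs were called. DNAJB11, outside the 6, had r = 0.59 with HSP90B1 and 0.60 with HYOU1 over 24 arrays (permutation adjusted p = 0.0066 for both). Both values lie above the lowest of the 15 pairs, whereas with CALR it had 0.32 (0.198). With HSP90B1 it had r = 0.72 within the 14 arrays (permutation adjusted p = 0.0127) and 0.33 within the 10 (0.564). With DDIT3 it had 0.15 (0.744) and 0.66 (0.132) by the same test.

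HSP90B1 and HYOU1 were the closest pair, with r = 0.88 and rho = 0.91 (permutation adjusted p = 6.9e-05 for r, where the unadjusted p is the smallest that 100000 permutations can give), and r = 0.83 without the 2 arrays farthest out. At 4 h HSP90B1 was 12.69, 12.58, 12.60 and 12.82 in DMSO and 12.55, 12.67, 12.76 and 12.75 in silymarin, and HYOU1 was 10.37, 10.13, 10.22 and 10.57 in DMSO and 10.33, 10.29, 10.45 and 10.50 in silymarin. DMSO replicate 4 was the highest of these 8 arrays in both genes. At 8 h HSP90B1 was 12.66, 12.71, 12.49, 12.67 and 12.71 in DMSO and 12.82, 12.76 and 12.70 in silymarin. DMSO replicate 3 at 8 h was the lowest of all 24 arrays in 8 of the 10 members, HSPA5 and SDF2L1 being the others.

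Ranked by their correlation with HSP90B1 on deviations from group means, HYOU1 came first of 18273 genes, CRELD2 second (rank 2), CALR 10th, PDIA4 17th, DNAJB11 69th and PDIA6 93rd. HSPA5 ranked 1426, DNAJB9 1292, SDF2L1 2470 and DDIT3 3342. The slope of HYOU1 on HSP90B1, a fit added after the data were seen, was 1.48 (SE 0.23, limma's adjusted p = 0.0208), and 0.0109% of all genes (2) passed, the other being NUCB2. CRELD2 had 1.25 (SE 0.23, limma's adjusted p = 0.113). The HYOU1 call was lost without DMSO replicate 3 at 8 h (0.291), where its slope was 1.38. It was also lost without DMSO replicates 2, 3 or 4 at 4 h, DMSO replicate 5 at 8 h, silymarin replicate 4 at 4 h and silymarin replicates 1 or 2 at 24 h (adjusted p from 0.0508 to 0.0763).

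**Figure D5:**
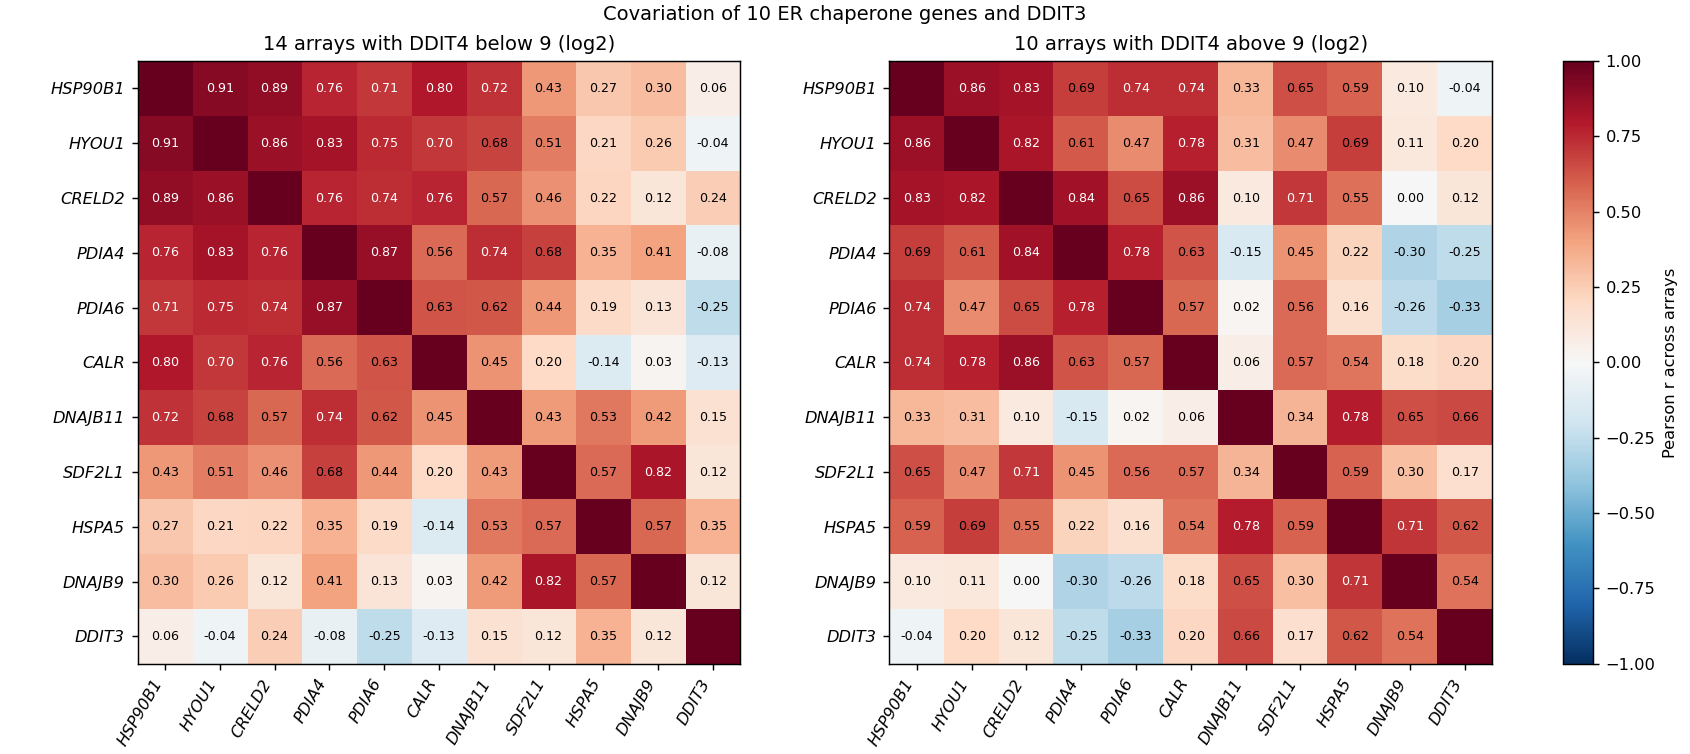
Pearson correlation of each pair of the 10 members and DDIT3 across the 14 arrays of low DDIT4 (left) and the 10 of high DDIT4 (right), printed in each cell. The block from HSP90B1 to CALR lies between 0.56 and 0.91 on the left and 0.47 and 0.86 on the right, and the DDIT3 row stays between -0.33 and 0.24 for these genes.

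SDF2L1 had DNAJB9 as its closest member on the arrays of low DDIT4. Within the 14 arrays of low DDIT4 it followed DNAJB9 with r = 0.82 (permutation adjusted p = 0.0033 over 55 pairs) and PDIA4 with r = 0.68 (0.0263). Within the 10 arrays of high DDIT4 the same correlations were 0.30 (0.591) and 0.45 (0.331), and the difference between them was not tested. Over all 24 arrays, on deviations from group means, SDF2L1 and DNAJB9 had r = -0.23, the opposite sign. SDF2L1 was 8.45 and 8.62 on the 2 DMSO arrays of high DDIT4 at 4 h and 8.49 and 8.60 on the others. At 8 h in DMSO it was 8.48, 8.58, 8.28, 8.25 and 8.47, where replicates 1, 4 and 5 were those of high DDIT4.

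Other genes of the pathway were read from lists chosen with earlier results known. Of 25 other ER folding factors, 6 rose with DDIT3 and 0 fell, with a median slope of 0.074 against -0.017 over all genes and 15.8% called in either direction. The chaperone HSPA13 had 0.507 (SE 0.048, limma's adjusted p = 4.0e-07) and the disulfide reductase DNAJC10 had 0.186 (SE 0.038). Of 19 genes of ER-associated degradation 7 rose and 1 fell. HERPUD1, a scaffold of the degradation machinery, had 0.561 (SE 0.050, limma's adjusted p = 2.4e-07), SELENOS had 0.212 (SE 0.039), and DERL3, named after its value was seen, was the gene that fell (-0.157, SE 0.043). Of 13 sensors and regulators 5 rose and 0 fell, led by EIF2AK3 with 0.338 (SE 0.041) and ERN1, which encodes IRE1, with 0.130 (SE 0.030). The ATF4 and CHOP arm had 20 of 25 risen and 0 fallen, with a median slope of 0.445, and SESN2, a sestrin, had 0.873 (SE 0.059).

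Genes further along the secretory route and cytosolic chaperones were read against the same background, where 8.32% of all genes rose with DDIT3 and 7.51% fell. Of 30 translocation and N-glycosylation genes 1 rose, the signal peptidase subunit SEC11C with 0.175 (SE 0.046, limma's adjusted p = 0.0113), and the channel subunit SEC61A1 had 0.058 (0.177). Of 21 ER to Golgi genes the coat subunit SEC24D rose with 0.250 (SE 0.082) and the GTPase SAR1A fell with -0.074 (SE 0.025). Of 14 cytosolic heat shock genes 0 rose and 2 fell, the chaperone HSPH1 with -0.223 (SE 0.060) and the co-chaperone DNAJA1 with -0.169 (SE 0.053). Whether these counts differ between the lists was not tested. With the term for the 2 clusters of arrays 2 of the ATF4 and CHOP arm rose and 0 genes rose in the other lists. The ER to Golgi list lost its gene that fell in 19 of 24 omissions of a single array, and its count that rose ran from 0 to 2 over them. The heat shock count ran from 0 (silymarin replicate 1 at 4 h omitted) to 3.

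Against HSPA5, 7 of 25 folding factors and 7 of 19 degradation genes rose and 0 fell in either list, where 2.15% of all genes were called. DNAJC3, which binds BiP and restrains PERK, had a slope of 1.44 (SE 0.22, limma's adjusted p = 0.0026) and DNAJC10 one of 0.83 (SE 0.17). The mannosidase-like EDEM1 had 1.31 (SE 0.23) and EDEM3 1.08 (SE 0.21). Of the sensors EIF2AK3 was the 1 gene that rose, with 1.39 (SE 0.22), and XBP1 had 0.53 (SE 0.15, limma's adjusted p = 0.0630). Of the ATF4 and CHOP arm 9 of 25 rose, with the secreted stanniocalcin STC2 at 3.9 (SE 0.84) and SLC7A11, the cystine transporter, at 3.84 (SE 0.89). SEC24D rose with 1.71 (SE 0.24) as the 1 called of 21 ER to Golgi genes, beside SEC23B with 0.44 (SE 0.15, limma's adjusted p = 0.123). Of the translocation list 0 of 30 were called, with SEC61A1 at 0.38 (SE 0.11) and SEC63 at 0.44 (SE 0.15), as were 0 of 14 heat shock genes, with DNAJB1 at -0.34 and HSPD1, a mitochondrial chaperone on that list, at -0.19. These counts rested on single arrays. When DMSO replicate 5 at 8 h was omitted, 1 folding factor rose, 0 degradation genes and 0 of the ATF4 and CHOP arm. Omitting replicate 2 of that group gave 2, 2 and 0, and omitting DMSO replicate 3 of any of the 3 times gave 4, 4 and 1. For the ATF4 and CHOP arm the count was 5 when either DMSO replicate 2 or silymarin replicate 4 of the 4 h groups was omitted. It was 2 when DMSO replicate 4 at 8 h was omitted, 5 for DMSO replicate 4 at 24 h and 15 for DMSO replicate 2 at 24 h. Omitting DMSO replicates 1 or 2 of the 24 h group gave 2 sensors that rose. With DDIT3 as a covariate 0 genes of each list were called.

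Genes with an ERSE or ERSE-II were read in the same way, beside the 8.32% of all genes that rose with DDIT3 and the 7.51% that fell. Of the 7 members that hold one, 1 was called, HSPA5. Of the 27 other measured genes that hold one, 4 rose, HERPUD1, FICD (0.506, SE 0.056), ERO1B (0.347, SE 0.080) and XBP1 (0.115, SE 0.035). The 3 that fell were SHCBP1 (-0.239, SE 0.057), ZNF143 (-0.224, SE 0.046) and CNKSR1 (-0.140, SE 0.035). With the term for the 2 clusters of arrays 0 of the 27 rose and 0 fell, and with the replicate block 2 rose and 1 fell. The median slope was 0.029 for the members and 0.018 for the others. CANX, a lectin chaperone with such an element, had 0.071 (SE 0.035, limma's adjusted p = 0.176).

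Genes whose deviations from group means were most like those of HSPA5, among genes at or above the median level and outside the members, were TMF1 (r = 0.90), NFXL1 (0.88), GOLGA5 (0.87), SLC25A30 (0.86) and NEB (0.86), over 24 arrays. For DDIT3 they were SESN2 (0.96), FLCN (0.95), CNNM4 (0.95), IFRD1 (0.95) and CREBRF (0.95). For HSP90B1, added after the data were seen, they were NUCB2 (0.83), PC (0.82), PPIB (0.81), MAGT1 (0.80) and RPN2 (0.79). These are correlations over the same 24 arrays and carry no test.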

How the data were processed

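Total RNA was hybridised to 24 arrays. The authors deposited log2 values, which came from RMA in the oligo package according to the submitters' processing notes (versions not given). RMA subtracts background, applies quantile normalisation and summarises probes. The medians of the deposited arrays still differed, from 7.04 to 7.18. Of 28869 probe sets, 19302 had 1 gene symbol, 1729 several and 7838 were not listed. Each gene kept its probe set of highest mean, which left 18274 genes. One limma 3.58.1 model (R 4.3.3) held 6 group means, with 18 residual and 5.04 prior degrees of freedom. Further models added the array's level of DDIT3, HSPA5 or HSP90B1. Tests were two-sided, with Benjamini-Hochberg adjustment over all genes and a threshold of 0.05. Correlations used 100000 permutations. Scripts were tested on simulated data with known changes. Promoter sequences came from RefSeq (GRCh38.p14).

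The members, lists and tests were chosen with earlier results of these data known. Named genes were all members, DDIT3, DDIT4, ATF4, ASNS and TRIB3, the pair with the smallest p per list in the slopes on DDIT3 and on HSPA5, and the 5 genes most like HSPA5 and DDIT3. Alternatives were other scalings, dim genes left out, other limma settings, covariates, the replicate block and single arrays left out. The labels do not state whether replicate numbers pair the samples. Same-numbered arrays correlated by -0.14 to 0.43 in their deviations, and pairing was not tested.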

Additional observations from a re-analysis of the deposited data

Results flagged for a closer look

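Of 44 sets of 4 or 5 replicates tested over the members and DDIT3, 3 held an array far from the others by Dixon's criterion, where chance alone flags about 1 in 20 sets. HSP90B1 in DMSO replicate 3 at 8 h was 12.49, below the other 4 arrays at 12.66 to 12.71. DDIT3 in silymarin replicate 1 at 4 h was 10.74, above the other 3 at 9.17 to 9.42, and in DMSO replicate 3 at 24 h it was 10.51, above the other 4 at 9.10 to 9.42. DDIT4 was high on both of those DDIT3 arrays.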

How the results depend on the processing

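The number of arrays limits precision, 3 to 5 in a group, and the p-values cover only spread between them. limma called 0 members in each comparison of groups under each alternative run. The slopes on the array's DDIT3, HSPA5 and HSP90B1 moved more, and the cause was not tested. On DDIT3 2 members were called (2893 genes), 1 with the replicate block (1249 genes) or at an adjusted p under 0.01 (1509), and 0 with the term for the 2 clusters by DDIT4 (157). Leaving out single arrays gave 2 to 3 members and 2280 to 2944 genes. On HSPA5 1 member was called (392 genes), 2 with arrays re-centred to 1 median (1324 genes), and 0 at an adjusted p under 0.01 (21) or with DDIT3 as a covariate (1). Repeated quantile normalization gave 261 genes, no group means 197 and the block 181. Leaving out single arrays gave 0 to 1 members and 15 to 1006 genes. On HSP90B1 1 member was called (2 genes), 2 with arrays re-centred (8 genes), after cyclic loess (4), without dim genes (3) or without group means (8), 0 with the replicate block or at 0.01, and 0 to 1 without single arrays. With the replicate block HSPA5 on DDIT3 had limma's adjusted p = 0.0850, DDIT3 on HSPA5 0.103 and HYOU1 on HSP90B1 0.625, and it changed no other called slope of a member or DDIT3. Whether the replicate numbers pair the samples is not stated and was not tested. Of the lists, on DDIT3 2 folding factors, 4 degradation genes and 2 sensors rose with the replicate block, and on HSPA5 5, 3 and 1, with 3 of the ATF4 and CHOP arm. Other scalings, limma settings, dim genes left out or no group means gave 5 to 9 folding factors on HSPA5, 4 to 9 degradation genes, and 1 to 17 of the ATF4 and CHOP arm.

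No slope or difference that changed sign had been called. Slopes changed sign with arrays re-centred to 1 median (0.117 for PDIA6 on HSPA5, 0.135 for CALR on HSPA5, 0.114 for SDF2L1 on HSPA5) and without group means (0.123 for PDIA6 on HSPA5, 0.0889 for CALR on HSPA5, 0.122 for SDF2L1 on HSPA5). They also did with the replicate block (0.0726 for SDF2L1 on HSPA5), with DDIT3 as a covariate (0.102 for PDIA6 on HSPA5, 0.524 for SDF2L1 on HSPA5) and with the term for the 2 clusters by DDIT4 (-0.0343 for HSP90B1 on DDIT3, -0.115 for PDIA4 on DDIT3, -0.0204 for CALR on DDIT3, -0.0210 for HYOU1 on DDIT3). Differences between silymarin and DMSO changed sign with arrays re-centred (0.0177 for PDIA4 at 4 h, -0.00381 for HSP90B1 at 24 h, -0.00117 for DNAJB11 at 24 h) and after repeated quantile normalization (-0.00340 for PDIA6 at 4 h, -0.00754 for DNAJB9 at 4 h, 0.0140 for CALR at 24 h). They did so after cyclic loess (-0.00369 for PDIA6 at 4 h, 0.0105 for CALR at 24 h), with array weights (0.00241 for PDIA4 at 4 h, -0.120 for DDIT3 at 4 h, -0.245 for DNAJB9 at 8 h, -0.0890 for DDIT3 at 8 h) and with the replicate block (0.0279 for CALR at 24 h). With DDIT4 as a covariate they were 0.00909 for PDIA4 at 4 h, -0.0104 for DNAJB9 at 8 h, -0.00500 for DNAJB9 at 24 h and -0.137 for DDIT3 at 24 h.

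Leaving out single arrays gave ranges across 0 for these. At 4 h they were -0.0165 to 0.0453 for CALR, -0.0119 to 0.133 for CRELD2, -0.316 to 0.293 for DDIT3, -0.132 to 0.211 for DNAJB9, -0.0229 to 0.0581 for HSP90B1, -0.00922 to 0.0990 for HSPA5, -0.0505 to 0.0565 for PDIA4 and -0.0475 to 0.0536 for PDIA6. At 8 h they were -0.113 to 0.566 for DDIT3 and -0.128 to 0.348 for DNAJB9. At 24 h they were -0.0694 to 0.0574 for CALR, -0.245 to 0.318 for DDIT3, -0.0310 to 0.0663 for DNAJB11, -0.0120 to 0.341 for DNAJB9, -0.0224 to 0.0538 for HSP90B1 and -0.0130 to 0.0961 for HSPA5. Slopes on HSPA5 ran from -0.0907 to 0.0951 for CALR, -0.136 to 0.0363 for PDIA6 and -0.156 to 0.116 for SDF2L1.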
